A study of Homo sapiens with 4 samples.

Results

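The 60 genes described here lie on human chromosome 13 and are transcribed in most cell types, and they were followed in MCF12A cells after deletion of a promoter on another chromosome. They were picked by symbol from a written list of broadly expressed chromosome 13 genes, and all 60 were found among the 16811 genes measured. Chromosome 13 was singled out because its genes had a low median in the comparison of edited with wild-type cells, so the size of the decrease over these genes is a description of that choice and carries no test. The questions asked were how even the decrease was along the chromosome and which genes, among them RB1, BRCA2 and FOXO1, departed from it.

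MCF12A is a non-tumorigenic line of human mammary epithelial cells, although the sample labels describe the source as a breast cancer line. The KO group, with 2 libraries, had lost the p2 promoter of C1orf132 through CRISPR/Cas9 editing, the host gene of a microRNA pair on chromosome 1, and the WT group, with 2 libraries, was unedited. GFP-positive edited cells had been sorted singly and grown into colonies, and the sources used here do not give which colony or colonies were sequenced. Both groups were grown in the same medium with epidermal growth factor, hydrocortisone, cholera toxin, insulin and horse serum. The level of C1orf132 was not analysed, and the groups are taken from the labels alone. The study calls the libraries of a group biological replicates, without saying how the cultures were kept apart, and p-values measure only the spread between these libraries. In bulk RNA, fewer cells of a type and less RNA per cell cannot be told apart.

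Chromosome 13 is among the gene-poor human autosomes, yet it carries several of the best known growth regulators. RB1 encodes the retinoblastoma protein, which binds E2F-DP transcription factors and holds back entry into S phase. BRCA2 acts in the repair of DNA breaks by homologous recombination, and FOXO1 is a transcription factor that insulin signalling keeps out of the nucleus. Housekeeping genes such as these are mostly transcribed from promoters rich in CpG, and many of their products work in complexes whose other subunits are encoded elsewhere in the genome.

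A promoter window that fits the gene's own start was found for 54 of the 60 genes in the RefSeq table, each running from 250 bases before to 50 bases after the start. Over these 54 windows the median GC content was 67.0% and the median number of CpG was 28, against 65.7% and 27 over the 7388 tested genes with a window and 58.3% and 14 over all 27326 promoters in the table. The windows of 4 genes are shown because the results turn on them: GTF3A and POMP were the genes highest in KO cells relative to the others, POLR1D, the next listed gene along the chromosome from GTF3A, was among the lowest, and ERCC5, a repair nuclease gene, was also among the lowest. Capitals mark the letters searched on both strands, which were CCGGAAG for ETS factors such as ELF1, GCATGCG for NRF1, TTCGCGC or TTGGCGC for E2F, GTAAACA for FOXO, CCAAT and TATAAA. All 4 windows are on the plus strand of GRCh38.p14, at chr13:27424369-27424668 for GTF3A, chr13:28658880-28659179 for POMP, chr13:27620493-27620792 for POLR1D and chr13:102845782-102846081 for ERCC5.

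GTF3A: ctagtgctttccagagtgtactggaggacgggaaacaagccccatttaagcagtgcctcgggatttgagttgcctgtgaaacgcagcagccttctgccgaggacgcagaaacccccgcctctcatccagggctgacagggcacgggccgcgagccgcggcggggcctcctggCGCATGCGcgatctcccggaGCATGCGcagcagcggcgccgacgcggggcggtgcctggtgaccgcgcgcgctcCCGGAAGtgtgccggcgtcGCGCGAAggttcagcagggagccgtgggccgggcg
POMP: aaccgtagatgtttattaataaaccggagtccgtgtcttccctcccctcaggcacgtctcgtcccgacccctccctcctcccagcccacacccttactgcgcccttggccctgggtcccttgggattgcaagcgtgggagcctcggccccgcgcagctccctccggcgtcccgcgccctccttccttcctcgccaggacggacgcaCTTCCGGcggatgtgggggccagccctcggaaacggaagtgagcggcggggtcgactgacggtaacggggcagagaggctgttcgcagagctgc
POLR1D: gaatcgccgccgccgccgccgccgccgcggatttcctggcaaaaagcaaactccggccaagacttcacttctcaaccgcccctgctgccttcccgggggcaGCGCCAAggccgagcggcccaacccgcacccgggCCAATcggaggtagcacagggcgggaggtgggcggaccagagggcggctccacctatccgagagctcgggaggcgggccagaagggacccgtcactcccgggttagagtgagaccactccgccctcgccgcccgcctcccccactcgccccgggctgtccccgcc
ERCC5: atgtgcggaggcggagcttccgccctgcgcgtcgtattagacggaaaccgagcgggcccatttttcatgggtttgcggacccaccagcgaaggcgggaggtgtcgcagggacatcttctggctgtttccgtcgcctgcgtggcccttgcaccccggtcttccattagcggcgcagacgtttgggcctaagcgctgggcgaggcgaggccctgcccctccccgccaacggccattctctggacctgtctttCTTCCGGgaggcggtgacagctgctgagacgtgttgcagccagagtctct

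The GTF3A window held the ETS, NRF1 and E2F letters, with the NRF1 letters overlapping on opposite strands at the first of their places. The POMP and ERCC5 windows each held the ETS letters, and the POLR1D window held the E2F letters and a CCAAT box. Over the 54 genes, 16 windows (29.6%) held the ETS letters against 21.6% of tested genes and 10.6% of all promoters, and 9 (16.7%) held the NRF1 letters against 7.11% and 4.14%. The E2F letters stood in 5 windows (9.26%, against 8.99% and 5.13%), the CCAAT box in 18 (33.3%, against 37.1% and 35.7%) and TATAAA in 5 (9.26%, against 5.08% and 12.02%). The FOXO letters were in none of the 54 windows, against 2.30% of tested genes and 3.44% of all promoters. The ETS letters were therefore present in windows of genes that were high (GTF3A and POMP) and low (ERCC5) in KO cells, and a match of letters is a description of the window.

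The deposited values are normalized, and how they were scaled is not given in the sources used here. Of the 60 genes, 54 had a mean of at least 10 over the 4 libraries, in the units of those values. These 54 entered the limma fit of log2(value + 1) over 9590 genes. The 6 genes under that level were BRCA2, LIG4, LATS2, XPO4, WBP4 and AKAP11, and their fold changes are given without a standard error. The mean WT value of the 60 genes ran from 5.08 to 11732 with a median of 55.1. Depth was estimated from the smallest steps between low values. On that estimate the median over the 60 genes and 4 libraries was 1506 reads, 27 of the 60 had under 1000 in their lowest library, and the fewest were 155, for WBP4. Relative to KO replicate 1, the estimated depth was 1.13 for KO replicate 2, 0.929 for WT replicate 1 and 1.00 for WT replicate 2.

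The 60 genes were lower in KO than in WT cells by a modest amount. Their median log2 fold change was -0.23, a KO level of 0.854 of the WT level, while the median of all 9590 tested genes was 0.09, so that the genes lay 0.31 below the rest on the log2 scale, written as a shift of -0.31. The shift was -0.28 in KO replicate 1 and -0.33 in KO replicate 2, each against the WT mean, and -0.03 and 0.03 in the WT replicates. Both KO values are taken against the same WT libraries and are not independent of each other. The lower level was also broad, since 43 of the 60 genes were below 0 and 50 of the 60 (83.3%) were below the median of all tested genes. Both KO values were below both WT values in 30 of the 60 genes, where 26.9% of all tested genes had that order, and both were above in 3 (GTF3A, POMP and CUL4A), where 38.3% had that order. The groups overlapped in the remaining 27. The 32 genes with a WT mean of at least 50 had a shift of -0.34 from the median of all tested genes. That limit selects on the WT level, which favours genes lower in KO cells, so nothing about level is read from it.

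The other 96 tested genes of chromosome 13 had a median of -0.33 and a shift of -0.41. Those 96 genes, which include tissue-restricted genes, were spread more widely (SD 0.64) than the 60 genes (SD 0.43). The 8803 tested genes placed on chromosomes other than 13 had a median of 0.09. Chromosome 14 had a median of -0.46 over 312 tested genes and a shift of -0.54, so that a lower median was not particular to chromosome 13.

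**Figure D1:**
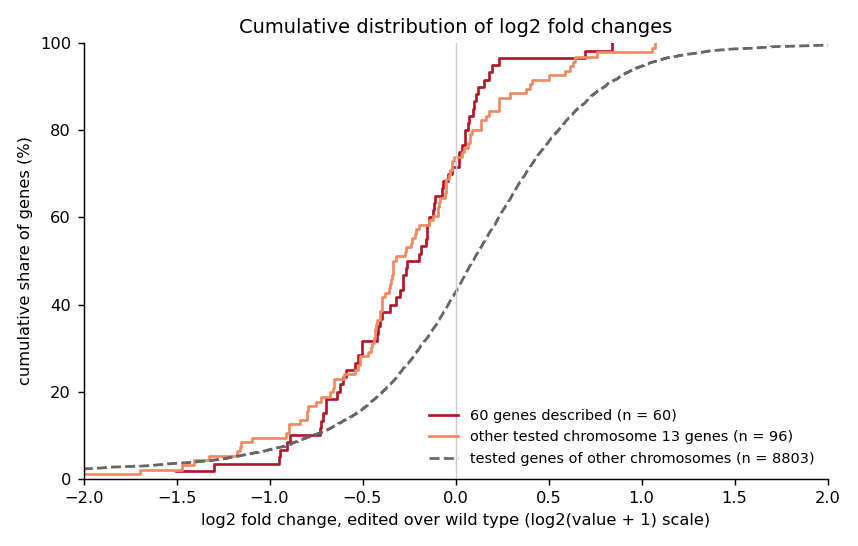
Cumulative share of genes in percent (vertical axis) against the log2 fold change of KO over WT cells on the log2(value + 1) scale (horizontal axis) for the 60 genes, the other 96 tested genes of chromosome 13 and 8803 tested genes of other chromosomes. The curve of the 60 genes lies left of the grey dashed curve for most of its length, with its median at -0.23 against 0.09, and ends on the right at 0.84.

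The cumulative curves of log2 fold changes show a displacement of most of the 60 genes, with a steep middle and a short tail on either side. The interquartile range ran from -0.55 to 0.02, and 26 of the 60 genes were within 0.25 of the median of -0.23 while 51 were within 0.5. Only 2 of the 60 were more than 0.5 above that median and 7 were more than 0.5 below. The SD of 0.43 stands beside the 0.23 that the replicate differences within the groups give for these 60 genes and their median standard error of 0.21. Over all tested genes the SD was 0.81 beside 0.35 from replicate differences, so that a spread over genes larger than the spread between replicates was not particular to the 60. The median of the 60 genes is their own centre, at a shift of -0.31 from the median of all tested genes. Over 2 standard errors from the median of the 60 genes lay 51.3% of all tested genes. That share is not counted from their own centre, so it is not a like comparison. Of the 54 tested genes, 13 lay that far from the median of the 60, 3 above and 10 below. Without KO replicate 1 that number was 7.

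**Figure D2:**
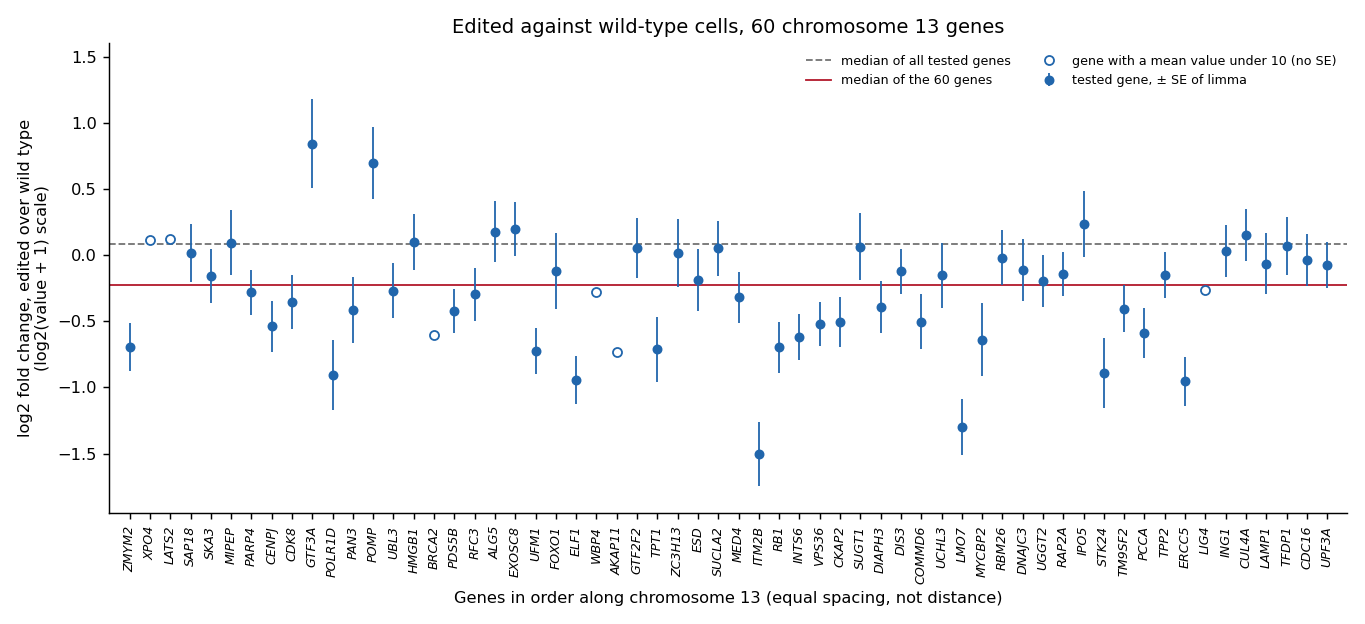
Log2 fold change of KO over WT cells (vertical axis) for the 60 genes in their order along chromosome 13 (horizontal axis, equal spacing), with the standard error of the limma fit as bars and open points for the 6 genes with a mean under 10. Most points lie below the dashed median of all tested genes at 0.09, ITM2B is lowest at -1.50, GTF3A is highest at 0.84, and the last 6 genes lie between -0.07 and 0.15.

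The plot of fold changes in chromosomal order shows no slope from end to end. Over the 60 genes the correlation of log2 fold change with start position was r = -0.01, and over the 59 pairs of neighbouring genes it was r = -0.02 between a gene and the next. Genes share libraries and are not independent, so these values are descriptions. Neighbours differed by a median of 0.377 on the log2 scale and all 1770 pairs by 0.384, so that a gene was about as far from its neighbour as from any other of the 60. In windows of 20 Mb, the median log2 fold change was -0.21 for the 20 genes between 20 and 40 Mb, -0.39 for the 17 between 40 and 60 Mb, -0.33 for the 6 between 60 and 80 Mb, -0.17 for the 6 between 80 and 100 Mb and -0.07 for the 10 past 100 Mb. ZMYM2, which encodes a zinc finger protein of a corepressor complex and was alone among the 60 in starting before 20 Mb, was at -0.69. All 17 genes between 40 and 60 Mb were below the median of all tested genes, and the range within that window was still wide, from -1.50 to 0.06.

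The end of the long arm stood nearest to the rest of the genome. The 6 genes past 110 Mb, from ING1 to UPF3A, were at a median of 0.00 with a range from -0.07 to 0.15, and the 54 genes before that point were at a median of -0.28. The boundary of 110 Mb was chosen after the values were seen. The shift from all tested genes was -0.09 for the 6 genes and -0.37 for the 54, and over 15 settings of the analysis it ran from -0.18 to -0.01 for the 6 and from -0.46 to -0.29 for the 54. The 15 other tested genes past 110 Mb had a median of 0.08, against -0.34 for the 81 other tested genes before it, although in those 15 the shift was -0.42 in KO replicate 1 and -0.05 in KO replicate 2. The 6 distal genes were an inhibitor-of-growth chromatin gene (ING1), the scaffold of a ubiquitin ligase (CUL4A), a lysosomal membrane protein (LAMP1), the DP partner of E2F (TFDP1), a subunit of the anaphase-promoting complex (CDC16) and a factor of nonsense-mediated decay (UPF3A). Of these, CUL4A was the highest, at 125 and 124 in the KO libraries and 122 and 103 in the WT libraries, and UPF3A was the lowest, at 83.8 and 86.9 in KO and 88.6 and 91.2 in WT.

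By contrast, the 5 genes from ITM2B to CKAP2 (chr13:48233206-52476627) were all lower in both KO libraries than in either WT library, with a median of -0.62 and a range from -1.50 to -0.50. This run holds ITM2B, RB1, INTS6, VPS36 and CKAP2, and it too was picked after the values were seen. Closely spaced genes had like values in some places and unlike values in others. ALG5 and EXOSC8, 1.42 kb apart, were at 0.18 and 0.20, and VPS36 and CKAP2, 4.84 kb apart, were at -0.52 and -0.50. ELF1 and WBP4, with 0.123 kb between them, were at -0.94 and -0.28, UCHL3 and LMO7, 14.4 kb apart, were at -0.15 and -1.30, and GTF3A and POLR1D, 185 kb apart, were at 0.84 and -0.90.

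**Figure D3:**
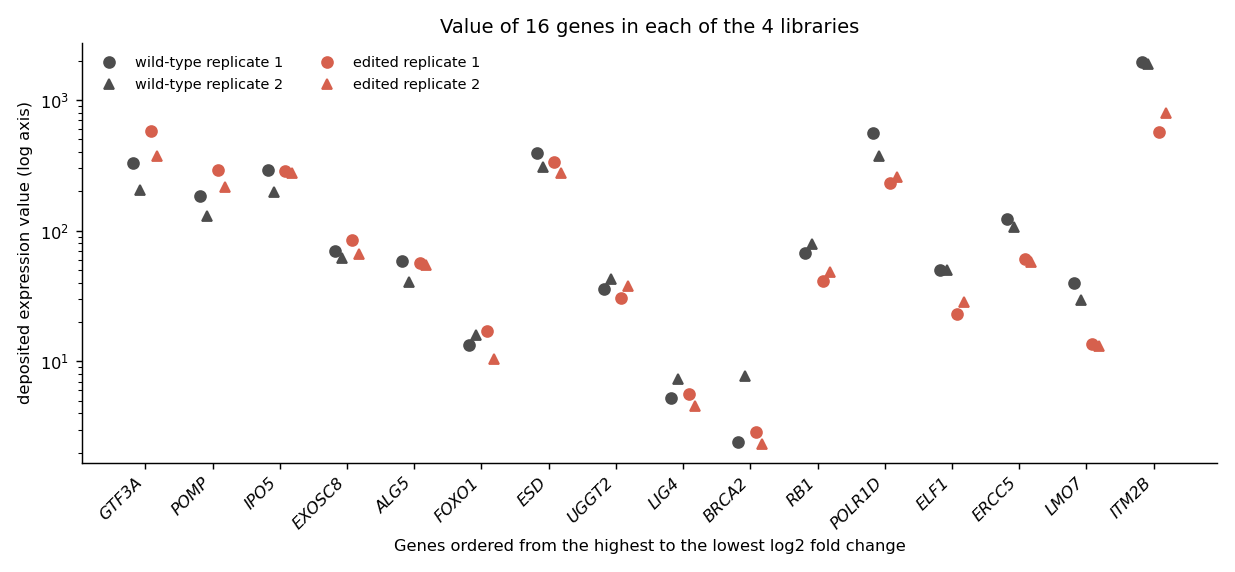
Deposited expression value on a log axis (vertical) for 16 of the 60 genes (horizontal axis, from the highest to the lowest log2 fold change) in WT replicates 1 and 2 (grey) and KO replicates 1 and 2 (red), with circles for replicate 1 and triangles for replicate 2. KO and WT points are separate in GTF3A and POMP on the left, with KO on top, and in the 6 genes from RB1 to ITM2B on the right, with WT on top, while those of BRCA2 and FOXO1 overlap.

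Among cell cycle regulators, RB1 (chr13:48303751-48481890) was lower than most of the 60 genes. Its values were 40.9 and 48.6 in the KO libraries and 67.3 and 78.9 in the WT libraries, so that the groups did not overlap and the KO mean was 61.2% of the WT mean. The log2 fold change was -0.70 with a standard error of 0.19, a departure of -0.47 from the median of the 60 genes. Over 14 alternative settings this departure ran from -0.63 to -0.33. Settings that changed only the filter, the variance trend or the replicate block could not move it. LPAR6, a receptor gene within the span of RB1, was also lower, at 16.6 and 13.3 in KO and 37.1 and 68.6 in WT, and reads of overlapping genes cannot be assigned with certainty because the use of strand is not given in the sources used here. TFDP1, whose product pairs with the E2F factors that RB1 binds, was at 278 and 217 in KO and 242 and 226 in WT, with overlapping groups and a log2 fold change of 0.07. The 9 cell cycle and mitosis genes had a median of -0.39, and 5 of them were below WT in both KO libraries. That order was found in 30 of the 60 genes and in 26.9% of all tested genes. These 5 were RB1, the centriole assembly gene CENPJ (-0.54), the spindle protein gene CKAP2 (-0.50), the cohesin regulator PDS5B (-0.42) and the formin DIAPH3 (-0.39). The kinetochore gene SKA3 (-0.16), CDC16 (-0.04) and the Hippo kinase gene LATS2 (0.12) overlapped between the groups.

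BRCA2 (chr13:32315077-32400268) gave no steady value. It was at 2.86 and 2.35 in the KO libraries and at 2.44 and 7.73 in the WT libraries, so that its log2 fold change of -0.61 rested on WT replicate 2 alone. Without that library its departure from the median of the 60 genes turned from -0.38 to 0.32. The estimated reads were 283 and 262 in KO and 224 and 764 in WT.

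All 5 genes of DNA replication and repair were below the median of the 60 genes, but only ERCC5 was clearly so. RFC3, PARP4 and LIG4 departed from that median by only -0.070, -0.055 and -0.033. BRCA2 departed by -0.38, which rested on WT replicate 2. ERCC5 (chr13:102846032-102875995), which encodes the nuclease that cuts 3' of a lesion in nucleotide excision repair, was at 60.97 and 57.18 in the KO libraries and 123.5 and 107.3 in the WT libraries. The groups were far apart, and the log2 fold change of -0.95 had a standard error of 0.19. BIVM-ERCC5, a read-through gene that contains ERCC5, had a KO mean of 2.94 and a KO to WT ratio of 0.520 beside the ratio of 0.512 for ERCC5, and reads can be split between them. RFC3, a subunit of the clamp loader, and PARP4, an ADP-ribose transferase of vault particles, were near the median at -0.30 and -0.28. LIG4, the ligase of non-homologous end joining, was at 5.62 and 4.52 in KO and 5.23 and 7.40 in WT, with overlapping groups.

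The genes of transcription and chromatin ranged widely, from -0.94 to 0.84. GTF3A (chr13:27424619-27435823) encodes TFIIIA, which binds the 5S ribosomal RNA gene for RNA polymerase III, and it was at 580.3 and 373 in the KO libraries and 328 and 205 in the WT libraries. KO was above WT in every library, with a log2 fold change of 0.84 and a standard error of 0.34, and replicate 1 was well above replicate 2 in both groups. POLR1D (chr13:27620743-27667411), a subunit shared by RNA polymerases I and III, was at 231 and 259 in KO and 561 and 375 in WT, and its log2 fold change of -0.90 had a standard error of 0.26. GTF3A and POLR1D, which both serve RNA polymerase III, therefore lay on opposite sides of the median of the 60 genes. ELF1 (chr13:40931919-41061386), an ETS factor, was at 22.9 and 28.4 in KO and 49.6 and 50.3 in WT, and its log2 fold change was -0.94 with a standard error of 0.18.

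FOXO1 (chr13:40555667-40666641) had no clear difference between the groups. It was at 17.03 and 10.39 in the KO libraries and 13.31 and 15.89 in the WT libraries, with KO replicate 1 the highest and KO replicate 2 the lowest of the 4. The log2 fold change of -0.12 had a standard error of 0.29, which covers both no change and the median of the 60 genes. The remaining genes of this role were lower in both KO libraries for ZMYM2 (-0.69), the Mediator kinase gene CDK8 (-0.35) and the Mediator subunit MED4 (-0.32), and overlapped for ING1 (0.03), the TFIIF subunit GTF2F2 (0.05) and HMGB1 (0.10). HMGB1, a DNA-bending chromatin protein, has many near-identical processed copies in the genome, and so does TPT1, so that the values of both are uncertain.

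RNA processing genes were closer to no change, with a median of -0.07 over 9 genes. INTS6, an Integrator subunit, was at 41.8 and 47.2 in KO and 67.3 and 70.2 in WT, and its log2 fold change of -0.62 was the lowest of this role. PAN3, of the PAN2-PAN3 deadenylase, was at -0.42 and the splicing-associated WBP4 at -0.28. EXOSC8, a core subunit of the RNA exosome, was at 85.0 and 66.6 in KO and 69.8 and 61.3 in WT, with overlapping groups and a log2 fold change of 0.20. DIS3 (-0.12), UPF3A (-0.07), the RNA-binding RBM26 (-0.02), SAP18 (0.02) and ZC3H13 (0.02) were nearer to 0.

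Ubiquitin and proteolysis genes ranged from UFM1 to POMP. POMP (chr13:28659130-28678959), the chaperone that assembles the 20S proteasome, was at 291 and 215 in the KO libraries and 184 and 129 in the WT libraries, above WT in both, with a log2 fold change of 0.70 and a standard error of 0.27. UFM1, a ubiquitin-like modifier, was at 43.8 and 39.8 in KO and 66.9 and 72.6 in WT, with a log2 fold change of -0.72. The ubiquitin ligase gene MYCBP2 (-0.64) and COMMD6 (-0.50), of a family that acts in endosomal sorting and cullin regulation, were also lower in both KO libraries, while UBL3, UCHL3, TPP2, SUGT1 and MIPEP lay between -0.27 and 0.09.

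The lowest of the 60 genes belonged to the endomembrane and adhesion genes. ITM2B (chr13:48233206-48270357), which encodes a membrane protein that binds the amyloid precursor protein, was at 567 and 798 in the KO libraries and 1940.2 and 1877 in the WT libraries. Its KO mean was 35.8% of the WT mean, with a log2 fold change of -1.50, a standard error of 0.24 and a departure of -1.28 from the median of the 60 genes. LMO7 (chr13:75620434-75859870), an actin-binding protein of adherens junctions, was at 13.6 and 13.2 in KO and 40.1 and 29.4 in WT, which was 38.4% of the WT mean and a log2 fold change of -1.30.

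The 5 genes of signalling, adhesion and translation were all lower in both KO libraries, an order found in 30 of the 60 genes and 26.9% of all tested genes. TPT1, which encodes the translationally controlled tumour protein and had the highest level of the 60 genes, was at 6003 and 8494 in KO and 12598 and 10867 in WT, with a log2 fold change of -0.71. STK24, a Ste20-like kinase gene, was at 104 and 121 in KO and 259 and 168 in WT, with a log2 fold change of -0.89. AKAP11, an anchor of protein kinase A, was at -0.73 and the small GTPase gene RAP2A at -0.14. Among genes of the secretory pathway, VPS36 of the ESCRT-II complex (-0.52) and TM9SF2 (-0.40) were lower in both KO libraries, and the glycoprotein folding sensor UGGT2 (-0.19), the chaperone DNAJC3 (-0.11) and the glucosyltransferase ALG5 (0.18) overlapped between the groups. The nuclear transport genes IPO5 (0.23) and XPO4 (0.11) were above the median of the 60 genes, IPO5 being the third highest of them. Of the metabolic genes, SUCLA2 was at 0.05, ESD at -0.19, near that median, and PCCA, of propionyl-CoA carboxylase, at -0.59.

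By limma's moderated test with Benjamini-Hochberg adjustment at 0.05 over all 9590 genes, 4 of the 54 tested genes (7.41%) were lower and 0 were higher, where 4.2% of all tested genes were lower and 2.89% were higher, which is 7.09% in either direction. At an adjusted p under 0.001, none of the 54 and 0.0104% of all tested genes were called. The 4 were ITM2B, LMO7, ERCC5 and ELF1, and 18 of the 54 had an unadjusted p under 0.05, 16 lower and 2 higher, where 32.3% of all tested genes did. The choice of chromosome used this same comparison, so nothing is read from these counts. None of the 54 was called without WT replicate 1 or without WT replicate 2, where 12 and 8 of the 54 had an unadjusted p under 0.05.

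Features of the transcripts followed the fold changes weakly. Over the 60 genes the correlation of log2 fold change with transcript GC content was r = 0.08 and with the WT level r = -0.14, and with log2 transcript length it was r = -0.31. Over all tested genes with a known transcript (n = 8917) the correlation with log2 length was r = -0.11. By rank the 2 sets were closer, with Spearman correlations with length of -0.23 for the 60 genes and -0.20 for all tested genes. All these genes come from the same 4 libraries.

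Many of the 60 genes encode subunits of complexes whose other subunits lie on other chromosomes. The partners counted were limited to genes on other chromosomes. The chromosome 13 side of this comparison carries the choice of a chromosome with a low median, so the counts that follow are a description. In 24 complexes with at least 1 tested partner, the genes of chromosome 13 had a median fold change under that of their partners in 21 and over it in 3, which were the m6A writer complex, PAN2-PAN3 and the LATS-MOB core. The median difference over the 24 complexes was -0.37. The 162 tested partners had a median of 0.16, 63 of them (38.9%) were below the median of all tested genes, and 79 were above in both KO libraries, an order found in 38.3% of all tested genes. Of the 162 partners, 3 rose and 1 fell by limma with Benjamini-Hochberg adjustment, where 7.09% of all tested genes were called. Those calls rest on all 4 libraries, as the number of genes called over the whole table was 47 without WT replicate 1 and 4 without WT replicate 2, against 680.

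**Figure D4:**
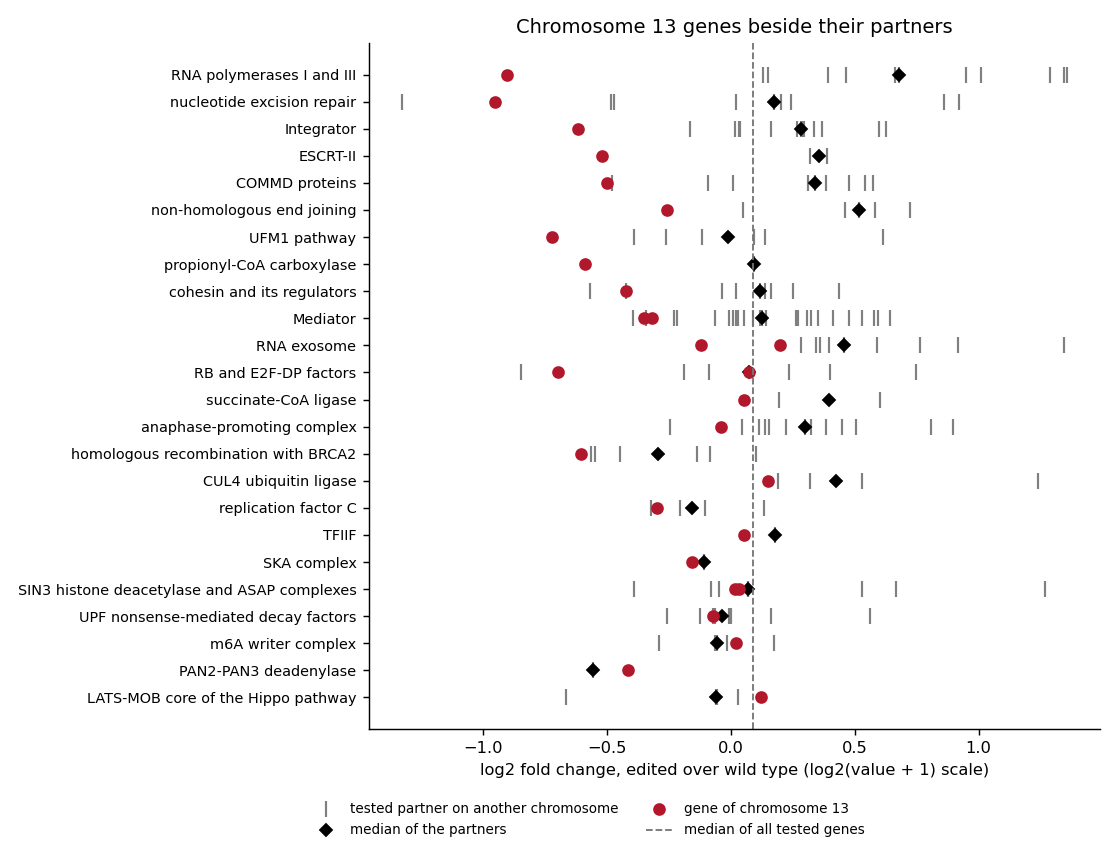
Log2 fold change of KO over WT cells (horizontal axis) for each complex (vertical axis), with ticks for the tested partners encoded on other chromosomes, a diamond for their median and red circles for the chromosome 13 genes. The red circle, or the median of the red circles, lies left of the diamond in 21 of the 24 complexes, and in RNA polymerases I and III POLR1D at -0.90 lies left of every partner.

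The plot of complexes shows the widest gap at RNA polymerases I and III. All 11 tested partners of POLR1D were between 0.13 and 1.36, with a median of 0.68, and 8 were above in both KO libraries. In the RNA exosome, EXOSC8 (0.20) and DIS3 (-0.12) lay under all 9 tested partners, which ran from 0.28 to 1.35 with 8 above in both KO libraries. INTS6 lay under all 13 tested Integrator partners, whose median was 0.28. UFM1 lay under the 6 genes of its conjugation pathway, VPS36 under both other ESCRT-II subunits and COMMD6 under its 9 relatives.

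Repair complexes divided. Among 9 tested partners of ERCC5 in nucleotide excision repair, DDB2, a damage sensor, fell by 1.33 on the log2 scale (limma adjusted p = 0.0298) and ERCC8, of transcription-coupled repair, rose by 0.92 (limma adjusted p = 0.0479). The 6 tested partners of BRCA2 in homologous recombination had a median of -0.29, and none was called by limma. An unadjusted limma p under 0.05 was found in 1, where 32.3% of all tested genes had one. BRCA1 was at 15.6 and 13.5 in KO and 18.4 and 26.3 in WT (log2 fold change -0.57, limma adjusted p = 0.167). All 5 tested partners of LIG4 in end joining were above it, with a median of 0.52. Of the proteins that work with RB1, RBL2 (p130) was at 32.3 and 40.5 in KO and 61.8 and 70.4 in WT (log2 fold change -0.85, limma adjusted p = 0.0595) and E2F4 at 146 and 115 in KO and 85.4 and 68.8 in WT (0.75, limma adjusted p = 0.0898), neither past the threshold. SAP30, a partner of SAP18 and ING1 in the SIN3 histone deacetylase complex, rose by 1.27 (limma adjusted p = 0.0435).

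None of the 26 tested paralogues on other chromosomes passed the threshold by limma, where 7.09% of all tested genes did. An unadjusted limma p under 0.05 was found in 5, 3 lower and 2 higher, where 32.3% of all tested genes had one. Their median log2 fold change was -0.03. CUL4B, the close relative of CUL4A, was at 124 and 260.0 in KO and 83.5 and 68.1 in WT (log2 fold change 1.24, limma adjusted p = 0.0913). ITM2C, a relative of ITM2B, was at 86.3 and 126 in KO and 101 and 94.5 in WT, with a log2 fold change of 0.09 beside the -1.50 of ITM2B.

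Genes downstream of RB1 and FOXO1 were then set beside them, and a link between their levels was not tested. Of 19 tested E2F target genes, which the retinoblastoma protein restrains, none was called by limma, where 7.09% of all tested genes were. Their median was 0.32. An unadjusted limma p under 0.05 was found in 8, all higher, where 32.3% of all tested genes had one in either direction. In both KO libraries 12 were above WT and 3 were below, orders found in 38.3% and 26.9% of all tested genes. TYMS, the thymidylate synthase gene, was at 283 and 192 in KO and 98.0 and 114 in WT (log2 fold change 1.13, limma adjusted p = 0.0583), the highest of the list. Of 12 tested FOXO target genes, 2 fell and 10 did not pass. The median of the 12 was -0.56, and the list went both ways. Both KO values lay under both WT values in 4 of the 12 and over them in 1, CAT (log2 fold change 0.48). PDK4 (0.95), SESN1 (0.18) and BCL6 (0.13) were also above 0, with overlapping groups. SOD2 was at 198 and 3582 in KO and 2277 and 1529 in WT, so that its KO libraries disagreed. TNFSF10, which encodes the death ligand TRAIL, was at 1.23 and 6.78 in KO and 208 and 142 in WT and fell by 5.38 on the log2 scale (limma adjusted p = 0.0132). TXNIP, an inhibitor of thioredoxin, was at 180.4 and 312 in KO and 757 and 1333 in WT and fell by 2.08 (limma adjusted p = 0.0420).

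Most epithelial markers were lower in KO than in WT cells. All 10 basal and general epithelial markers were tested, all 10 were below the median of all tested genes and 5 fell. Both KO values lay under both WT values in 8 of the 10. The groups overlapped for ITGA6, at 101 and 261 in KO and 206 and 188 in WT. They also overlapped for ITGB4, at 294 and 1277 in KO and 1378 and 660 in WT. The summed value of the 10 was 4690 and 6767 in the KO libraries and 12775 and 21320 in the WT libraries, most of it KRT5 and KRT17. CDH1, the E-cadherin gene, was at 3.89 and 1.54 in KO and 150.4 and 123 in WT (log2 fold change -5.28, limma adjusted p = 0.00328), and KRT5 stayed abundant at 3514 and 3056 in KO and 4590.3 and 11914 in WT. Of 8 mesenchymal markers 4 were tested, VIM rose to 824 and 1215 from 257 and 194 (limma adjusted p = 0.0210) and COL1A1 fell (log2 fold change -2.06, limma adjusted p = 0.0420). TWIST1 was at 0.35 (limma adjusted p = 0.393). CDH2 and ZEB1, under a mean of 10 and not tested, were above WT in both KO libraries. CDH2 was at 4.52 and 8.87 in KO and 0.43 and 0.10 in WT. ZEB1 was at 5.83 and 6.80 in KO and 0.33 and 0.93 in WT. The summed mesenchymal value was 1026 and 4995 in KO and 933 and 556 in WT, and FN1, the fibronectin gene, alone was at 171 and 3734.5 in KO and 645 and 314 in WT, so that it made up most of the sum in KO replicate 2 and was below WT in KO replicate 1. The immune markers CD68 and CD14 summed to between 41.7 and 58.4 in every library, and the other 3 immune markers and the 4 endothelial markers were not analysed here. The markers' part in the lower level of the 60 genes was not tested.

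Among other genes of chromosome 13 with a mean of at least 50, those that departed most downward were PHF11 (-0.90), N4BP2L2 (-0.84) and NDFIP2 (-0.80), and those that departed most upward were the heat shock gene HSPH1 (1.07), the mitochondrial cysteinyl-tRNA synthetase gene CARS2 (0.40) and GAS6 (0.18). HSPH1, at 276 and 180.2 in KO and 117 and 95.5 in WT, had a higher log2 fold change than any of the 60 genes. GTF3A overlaps MTIF3, which was at -0.35, and POLR1D overlaps LNX2, which was at -1.26, so that the high GTF3A value and the low POLR1D value each stood beside an overlapping gene that was lower in KO cells.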

How the data were processed

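Poly(A) RNA of MCF12A cells was sequenced as single-end reads of 75 bases, with 2 KO and 2 WT libraries grouped by their titles. The values deposited by the authors are a normalized expression signal per gene. The submitters' processing notes name Salmon, HISAT2 and hg38, and how the values were scaled is not given in the sources used here. The steps between low values fit a scaling by transcript length, but only 38.0%, 33.0%, 36.0% and 32.6% of checked low values in KO1, KO2, WT1 and WT2 came out as whole reads within 0.03, so no count test was run and read numbers are estimates. Genes with a mean of at least 10 (9590 of 16811) were fitted with limma 3.58.1 in R 4.3.3, with variance trend, on log2(value + 1), a scale that understates changes of low genes, and adjusted by Benjamini-Hochberg at 0.05. An exact permutation test of 2 against 2 libraries cannot go below p = 0.333 and was not used. The fit was tested on simulated data. The shift is a median less the median of all tested genes.

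Coordinates and promoters are RefSeq GRCh38.p14, the build of the labels, and 12499 genes matched by symbol and 799 by synonym, which placed 93.4% of tested genes. Transcript lengths and GC content are from GENCODE 44. The 60 genes and all lists were chosen with earlier results of these data known. Named were RB1, BRCA2 and FOXO1, the 5 genes with the largest departure from the median of the 60 on each side, the 3 nearest to it, genes given with their role, complex or list, and the 3 other chromosome 13 genes with a mean of at least 50 that departed most each way. Normalization, pseudocount, filters, a replicate block and leaving out each library were tried as alternatives. Values of some single genes in the lists are not reported here.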

Additional observations from a re-analysis of the deposited data

How the results depend on the processing

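Alternatives that changed only the filter, the variance trend or the replicate block could not move the median of the 60 genes. Under all the others it stayed negative. It moved from -0.23 to -0.30 with cyclic loess, -0.34 with equal library totals, -0.16 with the trend in GC content and length removed and -0.18 with a pseudocount of 5, and lay between -0.25 and -0.19 when 1 library was left out. Less the median of all genes, it moved from -0.31 to -0.41 for genes with a mean of at least 50, -0.24 with no filter and -0.26 with a pseudocount of 5, and lay between -0.37 and -0.28 with 1 library left out. Equal totals moved the median of all genes by -0.12. The partner median of 0.16 moved to 0.078 with cyclic loess and 0.044 with equal totals, and lay between 0.14 and 0.24 with 1 library left out.

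The number of genes called, 680, was 1 at an adjusted p under 0.001, 419 (191 lower, 228 higher) for genes with a mean of at least 50, 795 (571 lower, 224 higher) with no filter, and between 4 and 1431 with 1 library left out. Of the 60 genes, 4 were called in the reported fit, 0 at an adjusted p under 0.001, 2 for a mean of at least 50, 2 with no filter, and between 0 and 3 with 1 library left out, with 0 without WT replicate 1 or 2 and 1 without KO replicate 1. Genes over 2 standard errors from the median of the 60, 13 in the reported fit, lay between 7 and 16 with 1 library left out, with 7 without KO replicate 1. In such fits the lone library is assumed to vary like the others.

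The labels give the groups the same replicate numbers and do not say what a number marks, and over 9590 genes the replicate differences of the groups had r = -0.14. With a replicate block 133 genes and 0 of the 60 were called by limma, with 16 of the 60 at an unadjusted p under 0.05. With the crossed pairing, chosen after seeing the data, 1002 genes and 4 of the 60 were called.

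Departures from the median turned sign for BRCA2 and 4 genes nearer to it. BRCA2 (-0.38) went to 0.32 without WT replicate 2, which decides its value, and to -1.05 without WT replicate 1. FOXO1 (0.11) went to -0.21 without KO replicate 1 and -0.01 without WT replicate 1, up to 0.40 without KO replicate 2, and UGGT2 (0.03) to -0.15 without KO replicate 2 and -0.10 without WT replicate 1, up to 0.19 without WT replicate 2. LIG4 (-0.03) went to 0.14 with cyclic loess, 0.016 with a pseudocount of 5, 0.17 with quantile normalization, 0.06 without KO replicate 2 and 0.21 without WT replicate 2. ESD (0.04) went to -0.15, -0.0053 and -0.18 under those same 3 settings, -0.08 without KO replicate 1 and -0.12 without WT replicate 2, up to 0.22 without WT replicate 1. The departures of ITM2B, LMO7, ERCC5, ELF1, POLR1D, RB1, GTF3A, POMP, IPO5, EXOSC8 and ALG5 kept their sign in all 14 alternatives run for them. Those alternatives that changed only the filter, the variance trend or the replicate block could not turn a sign. Apart from RB1, these genes were named because their departures were the largest. With 2 libraries a group, differences near the median standard error of 0.21 cannot be resolved.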
